A study of Mus musculus with 16 samples.

Results

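The genes described here build cholesterol and fatty acids, or switch that synthesis on and off. They are 32 named mouse genes of the 24421 measured in each stage. Of these, 9 are enzymes of the stretch from acetyl-CoA through mevalonate to squalene, with Ggps1 of a side branch counted in. A further 11 lead from squalene to cholesterol. The others are 5 regulators of the SREBP transcription factors, the sterol carrier gene Stard4, and 6 enzymes of fatty acid synthesis. The rule lists them by name and uses no measured value, although the members were chosen with earlier results of these data known. All 32 were present in the tables of all 3 stages and all passed the filter on low values. RNA was sequenced from C57BL/6 mouse embryos that were wild type (WT) or knockout (KO) for miR-302, a microRNA cluster of the early embryo, and the series title asks what it does over time in the neural crest. At embryonic day 7.5 (E7.5) whole embryos were used, with 2 WT and 2 KO libraries. At E8.5 Wnt1-Cre+ cells were sorted, with 3 WT and 4 KO libraries. At E9.5 Sox10+ cells were sorted, with 2 WT and 2 KO libraries. Wnt1-Cre marks cells whose ancestors used Wnt1 regulatory sequence, in the dorsal neural tube and neural crest, and Sox10 is a transcription factor of migrating crest, so neither sort took the whole embryo. The labels give the genotype as KO and do not describe the allele. One more KO library of E8.5, KO4_5s, is not analysed here. The labels do not tie the libraries to embryos or litters, so each p-value measures the spread between these samples, which may be technical.

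Cells make cholesterol from acetyl-CoA by condensing it to HMG-CoA, reducing that to mevalonate, turning mevalonate into isoprenoid units, joining these to squalene, and closing and trimming the ring system. Fatty acids start from the same acetyl-CoA, which ATP citrate lyase supplies in the cytosol. The SREBP transcription factors, products of Srebf1 and Srebf2, drive most of these genes: SCAP escorts them out of the endoplasmic reticulum when sterols are low, and the INSIG proteins hold SCAP back when sterols are plentiful. Embryos need cholesterol for membranes and for the Hedgehog signal, which carries a cholesterol group, and inherited faults of the late sterol steps cause malformations of the face and limbs.

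Several facts about the libraries stand beside the results below. Depth, recovered from the deposited values, ran from 4912827 to 14861728 reads assigned to genes, and a count of 0 in a library allows up to 3 reads. The miR-302a, b, c and d precursors together had 14 and 25 reads in the E7.5 WT libraries and 0 in both KO libraries. At E8.5 and E9.5 they had at most 1 read in any library, so that the check of the genotype rests on E7.5. Transcripts of uterine glands (Ltf, Prss28, Prss29, Clu and Pgr) summed to 2317 RPM (a gene's reads relative to the total of its library) in E7.5 WT2, against 148 in WT1 and 17.1 and 17.6 in the KO libraries. Trophoblast transcripts summed to 1960 and 1091 RPM in E7.5 WT and 4559 and 7705 in KO. Primitive erythroid transcripts, mostly embryonic globins, reached 1649 and 2516 RPM in E8.5 KO1 and KO2 and 98.2 in KO4, against 1.78 in KO3 and at most 0.864 in WT. At E9.5 they reached 20998 RPM in KO1 and 20.5 in KO2, against 1.10 and 2.49 in WT. The 10 neural crest markers summed to 336 to 468 RPM in E8.5 WT and 345 to 761 in KO. At E9.5 they summed to 665 and 631 RPM in WT and 148 and 268 in KO. The defining marker Sox10 was present in each E9.5 library at 39.2 to 97.7 RPM. The normalised counts used for the tests scale these libraries differently from RPM, and at E9.5 they raise the KO libraries relative to WT. On that scale 3 of the 10 crest markers were called lower at E9.5, against 23% of all genes, and none higher. Their log2 fold changes were positive for 4 and negative for 6, with a median of -0.38. In bulk samples like these, fewer cells of a type and less RNA per cell cannot be told apart. Each library also carries a code number in its label, whose meaning is not stated. At E9.5 both WT libraries carry 209 and both KO libraries 171, so that genotype and code number cannot be told apart there.

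miR-302 acts by pairing bases 2 to 8 of the microRNA, the seed, with sites in target messages. Mature sequences of the cluster from RefSeq (GRCm38.p6) are shown because the seed fixes which sites to look for, with bases 2 to 8 in capitals.
miR-302b-3p: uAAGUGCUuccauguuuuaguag
miR-302d-3p: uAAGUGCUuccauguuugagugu
miR-302c-3p: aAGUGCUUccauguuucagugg
They lie on the plus strand, at chr3:127545275-127545297, chr3:127545665-127545687 and chr3:127545406-127545427. The miR-302b-3p and miR-302d-3p entries share the seed AAGUGCU, while bases 2 to 8 of the miR-302c-3p entry read AGUGCUU. Matches to the shared seed (AGCACTTA, AGCACTT or GCACTTA, on the message strand only) were present in the longest annotated 3′UTR of 4 of the 32 members (12.5%), against 17.7% of the 20966 genes searched. An 8-base match (AGCACTTA) was present in 1 member, 3.13%, against 2.97% of all genes. With the shortest annotated 3′UTR in place of the longest, 1 member held any match, Lss. The matched bases are in capitals below, each in the 3′UTR of the gene on GENCODE M21 (GRCm38), 5′ to 3′ on the message strand.
Hsd17b7, chr1:169949983-169950012, minus strand: agagatggctcAGCACTTAagagccccgag
Elovl6, chr3:129635989-129636017, plus strand: tatgcttccaaAGCACTTtagtctcagtg
Pmvk, chr3:89468848-89468876, plus strand: gcctctttaggGCACTTAtagggcaaagg
The fourth member with a match, Stard4, held the 7-base form AGCACTT. A match describes the letters only and is not a measured site.

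Promoters were searched for the letters that the pathway is known for, in the 300-base RefSeq windows from 250 bases before to 50 bases after the start, which were at hand for 26 members. The sterol regulatory element in the form TCACNCCAC, searched on both strands, was present in 1 of the 26, Hmgcs1 (3.85%), against 1.44% of 27025 genes. The form TCACGTGA was present in none of the 26 and in 1.12% of genes. The CCAAT box, to which a partner of SREBP binds, was present in 22 of 26 (84.6%) against 41.1% of genes, and the GC box GGGCGG in 21 of 26 (80.8%) against 38.2%. These counts say only which letters lie in these windows. The 250 bases before the start of Hmgcs1, the gene of the enzyme that makes HMG-CoA, are shown because this promoter holds the element (GRCm38.p6, chr13:119690101-119690350, plus strand), which begins 137 bases before the start and is in capitals.
Hmgcs1: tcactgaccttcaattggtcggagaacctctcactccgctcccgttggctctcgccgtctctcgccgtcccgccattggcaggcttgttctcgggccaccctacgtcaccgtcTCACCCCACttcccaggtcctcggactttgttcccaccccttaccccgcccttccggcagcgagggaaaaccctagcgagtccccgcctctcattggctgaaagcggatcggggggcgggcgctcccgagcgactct

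The WT libraries show how strongly each step is transcribed, as RPKM (the RPM divided by the transcript's length in kilobases, a level per length). At E7.5 the highest level was that of Fdps, which makes farnesyl diphosphate, at 115 and 171 RPKM in the 2 WT libraries. It was followed by Lbr, a sterol reductase that is also a receptor of the nuclear lamina (85.2 and 85.6), and by Acat2, which joins acetyl-CoA units (77.7 and 81.9). Fdps also led at E8.5, at 97.5 to 130 RPKM over the 3 WT libraries, ahead of Acat2 at 57.5 to 88.4, and those ranges do not overlap. At E9.5 Acat2 (115 and 122) and Fdps (91.6 and 114) were followed by Scd2 (66.8 and 97.3) and Lbr (74.0 and 82.4). The range of Scd2 overlaps those of Fdps and of Lbr. The lowest mean level at E7.5 and E8.5 was that of Acaca, acetyl-CoA carboxylase, which commits acetyl-CoA to fatty acids, at 1.30 to 1.73 and 0.945 to 1.44 RPKM. At E9.5 Stard4 had the lowest mean, at 1.64 and 2.18 RPKM, although Acaca was lower in WT1, at 1.60. The tables were normalised separately and the cell sources differ, so levels were not tested across stages.

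At E7.5, before the neural crest forms, no member passed the test between KO and WT embryos, and 0% of the 12492 tested genes did. The test was limma on log2(normalised count + 1) with Benjamini-Hochberg adjustment at 0.05, where a normalised count is a gene's reads divided by 1 factor per library. In the members, 13 of 32 log2 fold changes were positive, with a median of -0.07 against 48.9% positive and a median of -0.01 over all tested genes, and no member had an unadjusted p below 0.05, against 3.08% of all genes. On the whole reads edgeR called no gene and DESeq2 31, none of them a member. The groups did not overlap for 7 members, against 28.7% of all genes. Values ran from Idi1, the isomerase of the isoprenoid unit (log2 fold change -0.84 ± 0.46 SE), to Fasn, fatty acid synthase (0.62 ± 0.51).

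The smallest p at E7.5 belonged to Msmo1, a sterol methyl oxidase, at 429 and 668 in WT and 391 and 255 in KO. Its log2 fold change was -0.76 ± 0.36 SE (limma, unadjusted p = 0.0677, adjusted p = 0.99996), and both KO values lie below both WT values. Fdft1, squalene synthase, was at 572 and 817 in WT and 562 and 305 in KO, which also do not overlap. Idi1 was at 706 and 1318 in WT and 795 and 363 in KO, so that KO1 lies between the WT libraries. Insig2, one of the proteins that hold SCAP back, was at 304 and 377 in WT and 285 and 232 in KO, again without overlap. Lbr had a log2 fold change of -0.33 ± 0.28 SE, Hmgcs1 of -0.26 ± 0.29, Insig1 of -0.19 ± 0.34, and Sqle, squalene epoxidase, of -0.13 ± 0.43.

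The fatty acid genes and Srebf2 differed more between the 2 WT libraries than between the genotypes. Fasn was at 818 in WT1 and 264 in WT2, against 852 and 598 in KO. Acly, ATP citrate lyase, was at 1828 and 663 in WT and 1975 and 1434 in KO, and Srebf2 at 395 and 195 in WT and 477 and 325 in KO. For each of these 3 genes WT1 lies among the KO libraries and WT2 is the lowest of the 4. The same library was the lowest of the 4 for 12 members and the highest for 16, and it is the one with the uterine transcripts. Without WT2 the log2 fold change of Fasn was -0.20, and without WT1 it was 1.43, with adjusted p = 0.0957. For Srebf1 the 2 values were -0.51 and 1.01, and for Scd2, a stearoyl-CoA desaturase, -0.60 and 0.77. With all libraries the log2 fold change of Srebf1 was 0.25 ± 0.51 SE, of Scd1 0.22 ± 0.35 and of Scd2 0.08 ± 0.44. The part of the uterine transcripts in these values was not tested.

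At E8.5, in Wnt1-Cre+ cells, the sterol genes had higher mean levels in KO libraries as a group, though none passed the test. Of the 20 enzymes from acetyl-CoA to cholesterol, Ggps1 included, 19 had a positive log2 fold change, with a median of 0.30. Sqle was the exception at -0.02 ± 0.27 SE. Over all 32 members 24 were positive, with a median of 0.24, against 46.9% positive and a median of -0.03 among the 12257 genes tested. No member was past the limma threshold, nor was any gene (0%); on the whole reads edgeR called none and DESeq2 28 genes, none of them a member. Unadjusted p was below 0.05 for 3 members, Elovl6, Hsd17b7 and Lss, against 6.05% of all genes, and the groups did not overlap for 2, Elovl6 and Lss, against 6.54%. The 6 fatty acid genes had a median of -0.25, with 4 of them negative.

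**Figure D1:**
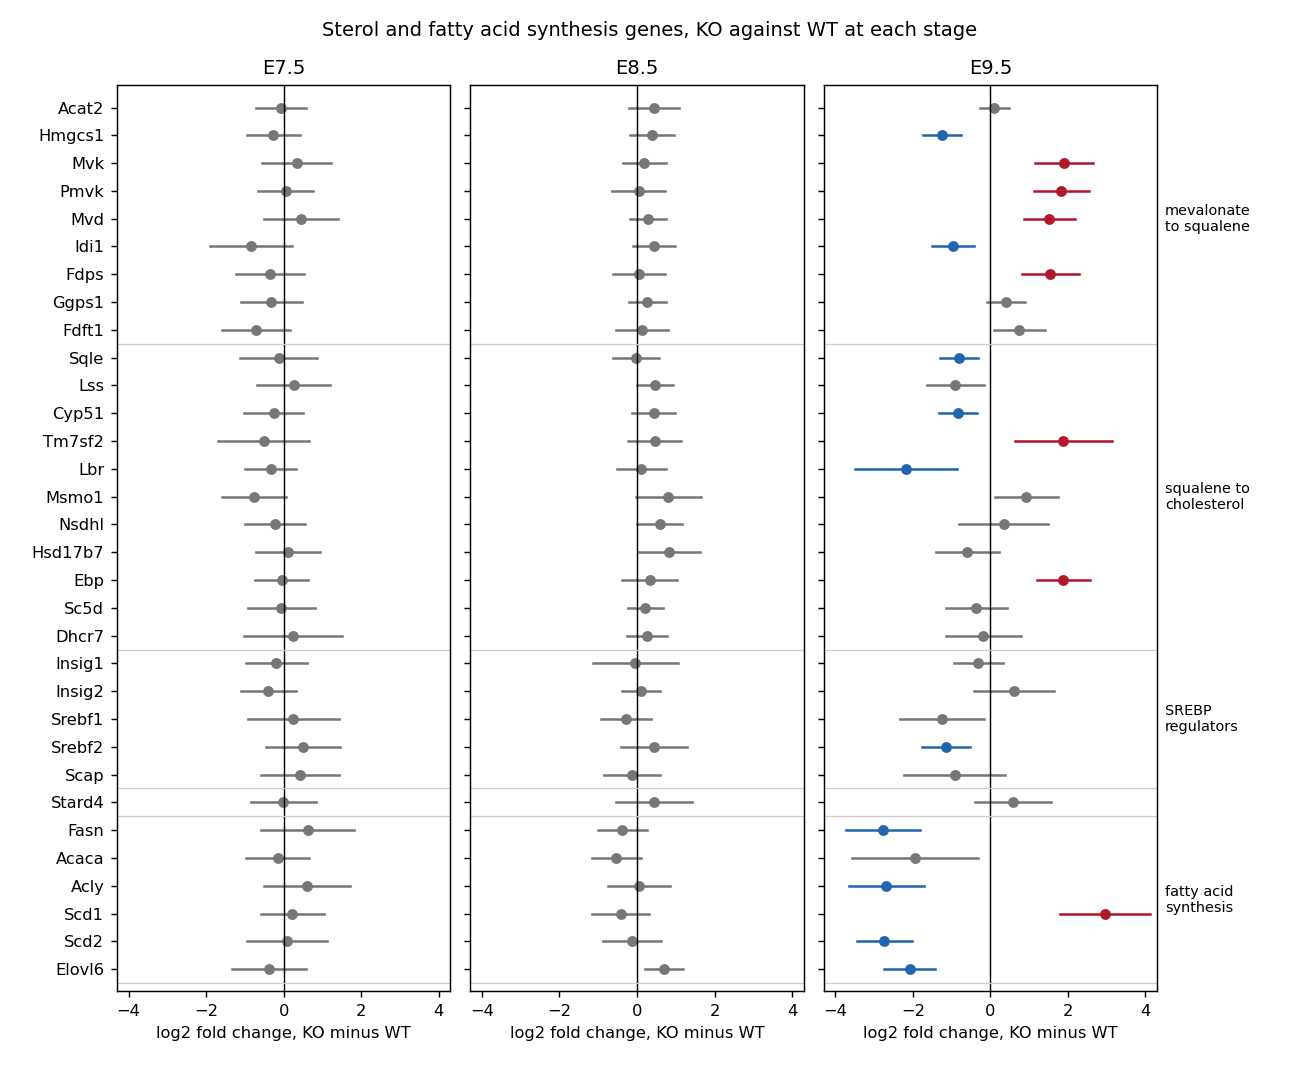
Log2 fold change of KO over WT (x axis) for each of the 32 members (y axis, ordered by role) at E7.5, E8.5 and E9.5; lines are 95% confidence intervals from limma, red marks members called higher in KO and blue members called lower. No member is coloured at E7.5 or E8.5, and 17 are at E9.5.

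Elovl6, which lengthens palmitate to stearate, had the smallest p at E8.5. It was at 261, 331 and 220.0 in WT1_5s, WT2 and WT3 and at 466, 502, 401 and 369.8 in KO1 to KO4, so that every KO library lies above every WT library. The log2 fold change was 0.69 ± 0.22 SE (limma, unadjusted p = 0.0105, adjusted p = 0.807). With the replicate number of the labels as a block, which leaves out KO4, it was 0.77 ± 0.16 and passed (adjusted p = 0.0380), the only member to do so. In that fit 1.23% of all genes were called higher and 5.41% were called in either direction. The labels state no such pairing, and WT1_5s and WT2 each correlated more with a KO library of another number. Lss, the cyclase that closes the sterol ring, was at 210.0, 168 and 204 in WT and 270.3, 288, 233 and 285 in KO, with a log2 fold change of 0.47 ± 0.21 SE (adjusted p = 0.815).

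Hsd17b7, a reductase in the removal of the sterol methyl groups and the member with the 8-base seed match, was at 102, 93.4 and 137 in WT. In KO1 and KO2 it was at 261 and 322, and in KO3 and KO4 at 129 and 136. The higher KO mean therefore comes from KO1 and KO2, and KO3 and KO4 lie within the WT range. Its log2 fold change was 0.84 ± 0.36 SE with all libraries (adjusted p = 0.815) and 0.27 without KO1 and KO2, the libraries of code number 128, which no WT library carries. Msmo1 was at 595, 996 and 491 in WT and 1447, 1632, 572 and 1350.4 in KO, so that KO3 lies within the WT range. Its log2 fold change was 0.81 ± 0.38 SE with all libraries and 0.41 without KO1 and KO2. Nsdhl, the dehydrogenase next to it in the pathway, was at 247, 216 and 163 in WT and 359, 383, 212 and 311 in KO, with values of 0.58 ± 0.27 SE and 0.32.

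Idi1 and Cyp51, the lanosterol demethylase, were also higher in KO1, KO2 and KO4 than in any WT library. Idi1 was at 866, 1162 and 891 in WT and 1398, 1729, 909.7 and 1309.9 in KO, and Cyp51 at 431, 752 and 709 in WT and 887, 901, 619 and 934 in KO. In both genes KO3 falls among the WT libraries. Acaca was the member with the most negative value, at 109.7 to 138 in WT and 69.7, 80.2, 72.8 and 128 in KO, and KO4 lies within the WT range (-0.53 ± 0.29 SE, adjusted p = 0.848). Hmgcs1 had a log2 fold change of 0.38 ± 0.26 SE, Srebf2 of 0.44 ± 0.38, Srebf1 of -0.29 ± 0.29, Insig1 of -0.04 ± 0.50, Fasn of -0.38 ± 0.29, Scd1 of -0.42 ± 0.33 and Scd2 of -0.13 ± 0.34. Insig1 was at 121, 227 and 704 in WT, so that its WT libraries alone span more than the 4 KO libraries, at 180.4 to 341.

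The 20 sterol enzymes were also counted library by library at E8.5, as a description with no test. In KO1, KO2 and KO4, 17, 19 and 17 of them were above their own mean over the 7 libraries, with median log2 deviations of 0.24, 0.27 and 0.36. In KO3 only 4 were above it, with a median of -0.28, next to 3 in WT3 (-0.27), 4 in WT1_5s (-0.20) and 10 in WT2 (-0.02). By this count KO3 was closer to WT1_5s and WT3 than to the other KO libraries. Single genes differed from it, and Sqle and Lbr were highest in WT3, at 1889 and 2793. KO1, KO2 and KO4 are also the KO libraries with erythroid transcripts at 98.2 RPM or more, and KO3 has 1.78. KO3 and WT3 lean to long transcripts (Spearman correlation with length 0.508 and 0.523, each library relative to the stage mean), whereas the other 5 range from -0.467 to 0.0266. KO3 also had the highest sums of surface ectoderm markers (801 RPM, others 250.4 to 506), neural crest markers (761, others 336 to 468), trophoblast markers (95.6, others 16.7 to 38.8) and visceral endoderm markers (66.7, others 24.4 to 35.3). After a trend over transcript length and GC content was taken out of each library, 25 of 32 members were positive at E8.5, with a median of 0.20 against -0.01 over all genes. The enzymes up to squalene were then positive in 9 of 9 cases and the later ones in 10 of 11, with medians of 0.26 and 0.34, and no member was called. Without KO1 and KO2 the median log2 fold change of the members was 0.11, and without KO3 it was 0.33. The part of these transcripts in the values was not tested.

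**Figure D2:**
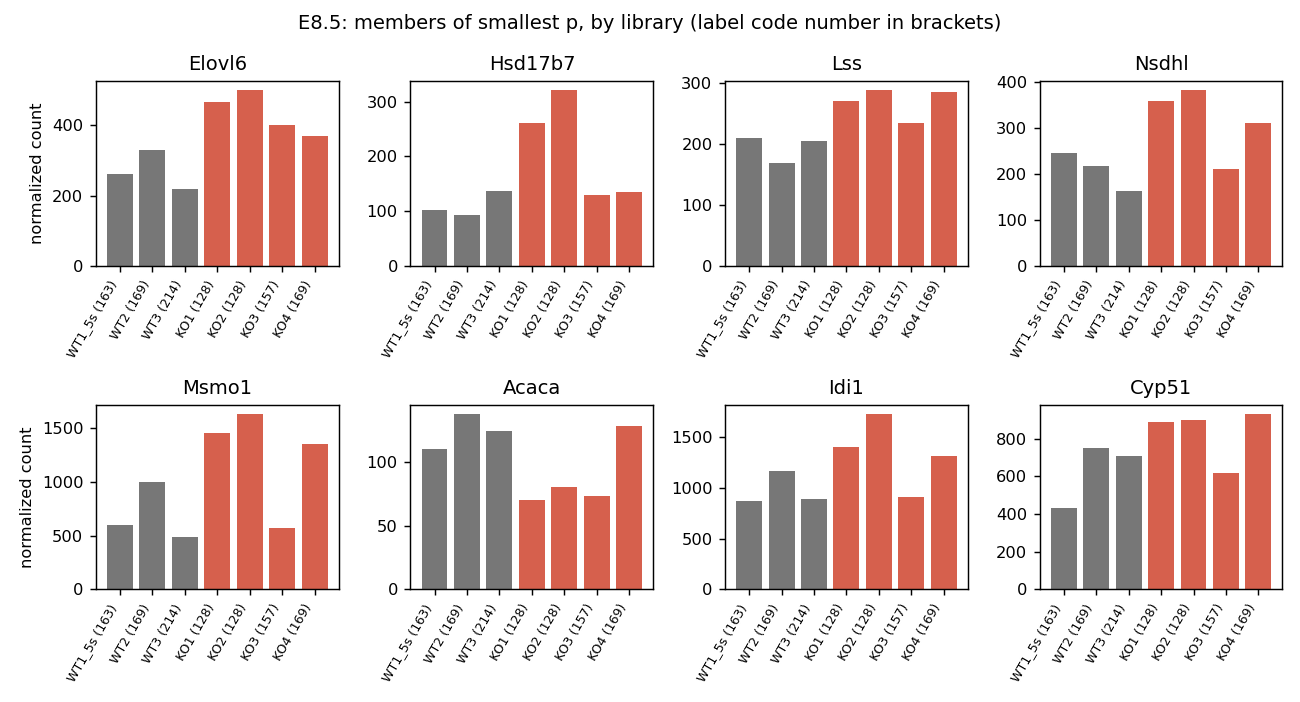
Normalised count (y axis, from 0) of the 8 members of smallest p at E8.5 in each of the 3 WT (grey) and 4 KO (red) libraries, with the label's code number in brackets. For Elovl6 and Lss every KO bar is above every WT bar, while for Hsd17b7 only KO1 and KO2 are.

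At E9.5, in Sox10+ cells, members were called in both directions, at about the rate of all genes. Of the 32 members 17 passed the test, 7 higher and 10 lower in KO, and 47.5% of the 12000 tested genes passed (24.5% higher, 23% lower). The higher members were Mvk, Pmvk, Mvd, Fdps, Ebp, Tm7sf2 and Scd1, and the lower ones Hmgcs1, Idi1, Sqle, Cyp51, Lbr, Srebf2, Fasn, Acly, Scd2 and Elovl6. Of the members 14 had a positive log2 fold change, against 47.3% of genes, and their median was -0.33, against -0.14 over all genes tested. On the whole reads edgeR called 17 members and 45.6% of genes and DESeq2 20 members and 48.9%, and limma with the replicate number as a block called 19 members and 47.7%. The groups did not overlap for 28 members, against 80.3% of all genes, and 22 had an unadjusted p below 0.05, against 56.7%.

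Mvk, Pmvk, Mvd and Fdps, which lead from mevalonate to farnesyl diphosphate, were higher in KO in the deposited values. Mvk and Pmvk, the kinases that phosphorylate mevalonate in turn, were at 218 and 188 (Mvk) and 232 and 183 (Pmvk) in WT. In KO they were at 605 and 947 (Mvk) and 624 and 874 (Pmvk). The log2 fold changes were 1.90 ± 0.29 SE and 1.84 ± 0.28 (limma, adjusted p = 0.00619 and 0.00567). Mvd, the decarboxylase that follows them, was at 182 and 154 in WT and 432 and 539 in KO (1.52 ± 0.26 SE, adjusted p = 0.00845), and Fdps at 1163 and 949.7 in WT and 2357 and 4014 in KO (1.55 ± 0.29, adjusted p = 0.0107). In all 4 genes KO2 was the highest library. None of these 4 was called once the length and GC trend described below was taken out. Hmgcs1, upstream of the kinases, and Idi1, which acts between Mvd and Fdps, were lower. Hmgcs1 was at 791 and 901 in WT and 350.5 and 359 in KO (-1.25 ± 0.20 SE, adjusted p = 0.00652), and Idi1 at 875 and 846 in WT and 391 and 503 in KO (-0.95 ± 0.21, adjusted p = 0.0183). Acat2, Ggps1 and Fdft1 did not pass, with values of 0.10 ± 0.15, 0.40 ± 0.19 and 0.75 ± 0.26 SE. These sizes depend on the scaling of the normalised counts. Mean RPKM was 16.4 in WT and 33.5 in KO for Mvk and 103 and 165 for Fdps, smaller differences than in normalised counts. For Hmgcs1 it was 32.8 and 7.42, a larger difference, and for Acat2 118 and 68.5.

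Among the 11 enzymes from squalene to cholesterol 2 were higher and 3 lower. Ebp, the sterol isomerase, was at 218 and 206 in WT and 647 and 950.3 in KO (1.88 ± 0.27 SE, adjusted p = 0.00490). Tm7sf2, a sterol reductase, was at 25.3 and 23.7 in WT and 77.1 and 112 in KO (1.88 ± 0.50 SE, adjusted p = 0.0288). Lbr, which catalyses the same reduction as Tm7sf2, moved in the opposite direction, from 1921 and 2169 in WT to 786 and 257 in KO (-2.18 ± 0.52 SE, adjusted p = 0.0221). Their transcripts differ in length, at 1498 bases for Tm7sf2 and 3510 for Lbr. Neither was called once the length and GC trend described below was taken out. Tm7sf2 had only 25 and 47 reads in WT and 73 and 66 in KO. Sqle, which opens this stretch of the pathway, was at 957 and 932 in WT and 586 and 495 in KO (-0.81 ± 0.19, adjusted p = 0.0212), and Cyp51 at 663 and 719.6 in WT and 397 and 377 in KO (-0.83 ± 0.20, adjusted p = 0.0210). The other 6 enzymes ranged from -0.90 for Lss to 0.93 for Msmo1 and did not pass.

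Of the regulators, Srebf2, whose product favours the sterol genes, was lower, at 593 and 696 in WT and 336 and 253 in KO (-1.14 ± 0.25 SE, adjusted p = 0.0167). Srebf1, whose product favours the fatty acid genes, was at 317 and 373 in WT and 211 and 98.6 in KO and did not pass (-1.25 ± 0.43, adjusted p = 0.0599). Insig1, itself a known SREBP target, was at 283 and 266 in WT and 215 and 228 in KO (-0.31 ± 0.25, adjusted p = 0.339). Scap (-0.92 ± 0.52), Insig2 (0.61 ± 0.41) and Stard4 (0.58 ± 0.39) did not pass either.

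Of the 6 fatty acid genes 4 were lower and 1 higher, against 23% and 24.5% of all genes. The 4 largest differences among the members were theirs (Scd1, Fasn, Scd2 and Acly). All 6 have transcripts of 4 kb or over, a length at which 43.7% of all genes were called lower. With the length and GC trend described below taken out, 2 of them were lower and 1 higher. Acly was at 2229 and 2528 in WT and 546 and 249.9 in KO (-2.68 ± 0.39 SE, adjusted p = 0.00505), and Fasn at 1009.5 and 1774 in WT and 250.2 and 155 in KO (-2.76 ± 0.38, adjusted p = 0.00441). Elovl6 was at 557 and 551 in WT and 114 and 148 in KO (-2.08 ± 0.26, adjusted p = 0.00359), the reverse of its order at E8.5. Acaca was at 112 and 193 in WT and 63.3 and 22.1 in KO and missed the threshold (-1.94 ± 0.64, adjusted p = 0.0552). The exception was a desaturase. Scd1 and Scd2 both place the double bond that turns stearate into oleate and are neighbours on chromosome 19 (19:44394455-44407879 and 19:44293674-44306864). Scd2 was at 2695 and 3983 in WT and 588 and 411 in KO (-2.73 ± 0.28 SE, adjusted p = 0.00201), whereas Scd1 was at 123 and 222 in WT and 898 and 1873 in KO (2.97 ± 0.46, adjusted p = 0.00618).

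**Figure D3:**
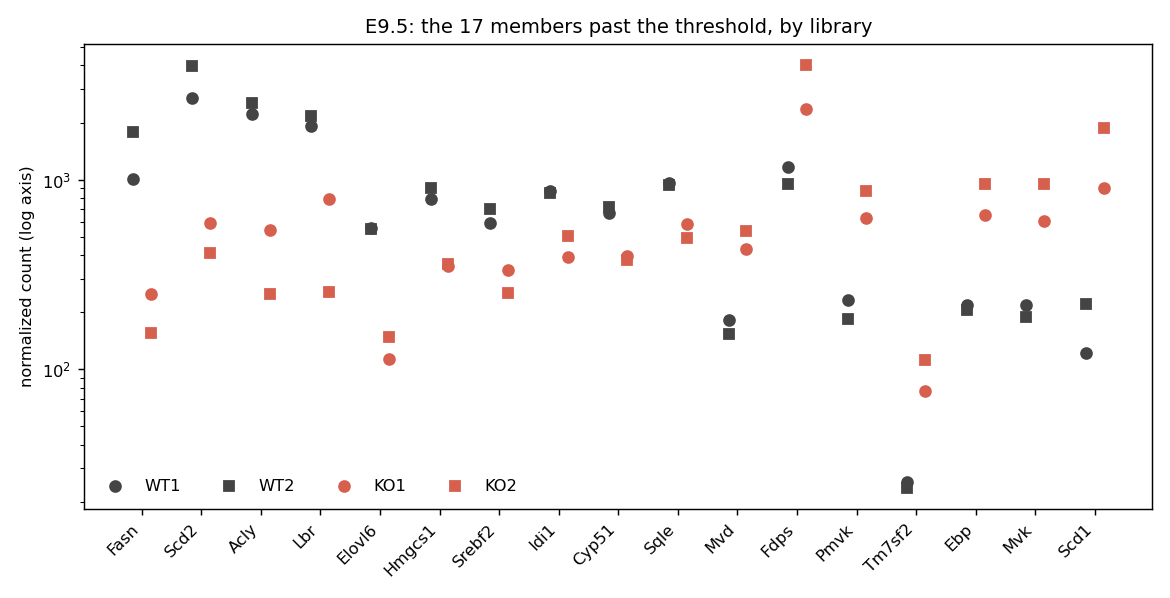
Normalised count (y axis, log scale) at E9.5 of the 17 members past the threshold, ordered by fold change; dark symbols are WT1 (circle) and WT2 (square) and red symbols KO1 (circle) and KO2 (square). Fasn to Sqle lie lower in both KO libraries and Mvd to Scd1 higher, with Scd1 at 898 and 1873 in KO against 123 and 222 in WT.

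The order of Scd1 and Scd2 can be read within each library, where scaling between libraries does not enter; this ratio was chosen after the values were seen. In RPKM, Scd2 exceeded Scd1 by 19.5-fold and 15.9-fold in the E9.5 WT libraries. In the KO libraries Scd1 exceeded Scd2, by 1.72-fold in KO1 and 5.14-fold in KO2. At E7.5 Scd2 exceeded Scd1 by 3.74-fold to 6.59-fold over all 4 libraries, and at E8.5 by 6.28-fold to 14.5-fold over all 7. The 2 E9.5 KO libraries were therefore the only ones of the 15 in which Scd1 was the higher of the pair. The genes are close paralogs, and how reads that match both were counted is not given in the sources used here.

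Fold change at E9.5 followed transcript length across the whole table, and the members followed it too. Over 11557 genes with a known length the Spearman correlation of the KO minus WT log2 fold change with transcript length was -0.675, against 0.0480 at E7.5 and 0.102 at E8.5; genes are not independent replicates. Over the 32 members it was -0.668. The WT libraries leaned to long transcripts (0.631 and 0.692, each library relative to the stage mean) and the KO libraries to short ones (-0.499 and -0.611). Among all genes under 2 kb 64.0% were called higher and 0.527% lower, and among genes of 4 kb and over 4.71% were called higher and 43.7% lower. All 6 members under 2 kb (Mvk, Pmvk, Mvd, Fdps, Tm7sf2 and Ebp) were called higher, with transcripts of 1194 to 1756 bases. The 10 lower members have transcripts of 2758 to 10050 bases. Scd1, at 4832 bases, was the only called member of 4 kb or over that was higher.

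**Figure D4:**
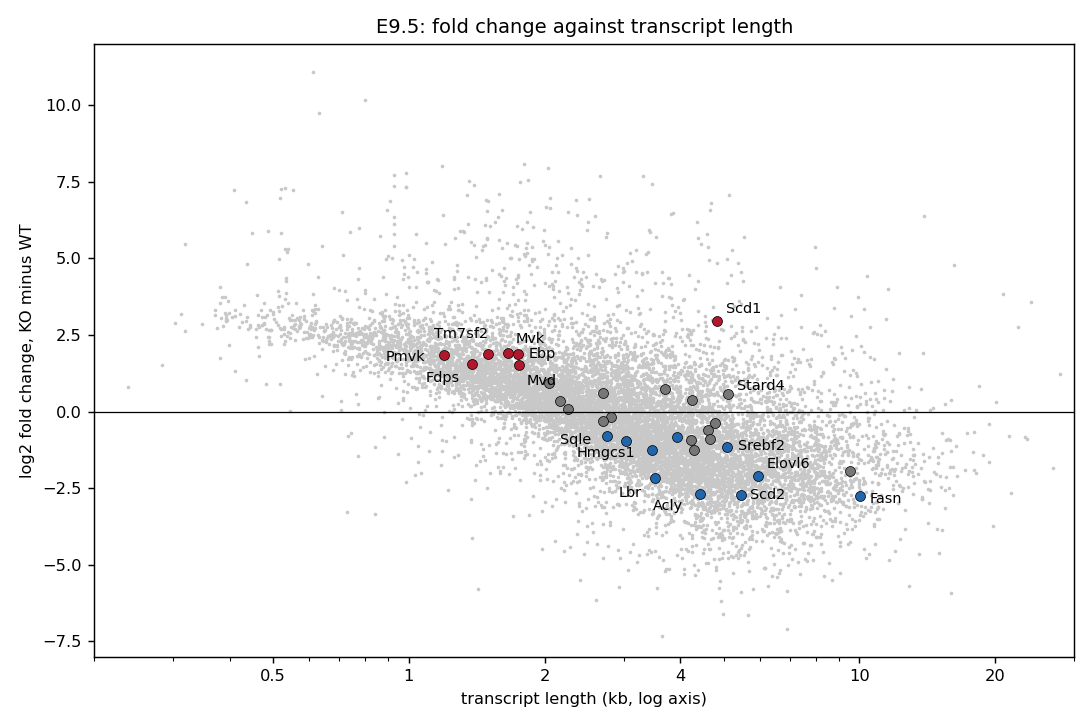
Log2 fold change of KO over WT at E9.5 (y axis) against transcript length in kb (x axis, log scale); grey points are all tested genes with a known length, and large points are the 32 members, red where called higher, blue where called lower and dark grey where not called. The members of 1194 to 1756 bases sit above 0 within the cloud, and Scd1 at 4832 bases sits above most genes of its length.

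After a trend over transcript length and GC content was taken out of each library, 21% of genes were called at E9.5, and 7 members. The calls that held were Scd1 (4.19 ± 0.55 SE, adjusted p = 0.0131) and Ebp (0.81 ± 0.20, adjusted p = 0.0487) higher, and Scd2 (-1.40 ± 0.15, adjusted p = 0.00957), Acly (-1.64 ± 0.21, adjusted p = 0.0120) and Sqle (-0.73 ± 0.15, adjusted p = 0.0348) lower. Called in addition were Ggps1, which makes geranylgeranyl diphosphate (1.42 ± 0.18, adjusted p = 0.0117), and Stard4 (1.88 ± 0.35, adjusted p = 0.0271), both higher. The short mevalonate genes did not pass in that fit: Pmvk was at 0.00 ± 0.22 and Fdps at -0.01 ± 0.23, with Mvk at 0.69 ± 0.26 and Mvd at 0.43 ± 0.22. Srebf2 (0.18 ± 0.25) and Cyp51 (0.08 ± 0.18) turned to the other sign. Fasn (-0.94 ± 0.25, adjusted p = 0.0589), Lbr (-1.49 ± 0.48, adjusted p = 0.0873), Hmgcs1 (-0.60 ± 0.16, adjusted p = 0.0619) and Elovl6 (-0.65 ± 0.34, adjusted p = 0.227) kept their sign and missed the threshold. With length alone removed, 8 members were called, with Fdft1 (1.53 ± 0.35) and Fasn (-1.23 ± 0.22) in and Ebp out.

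**Figure D5:**
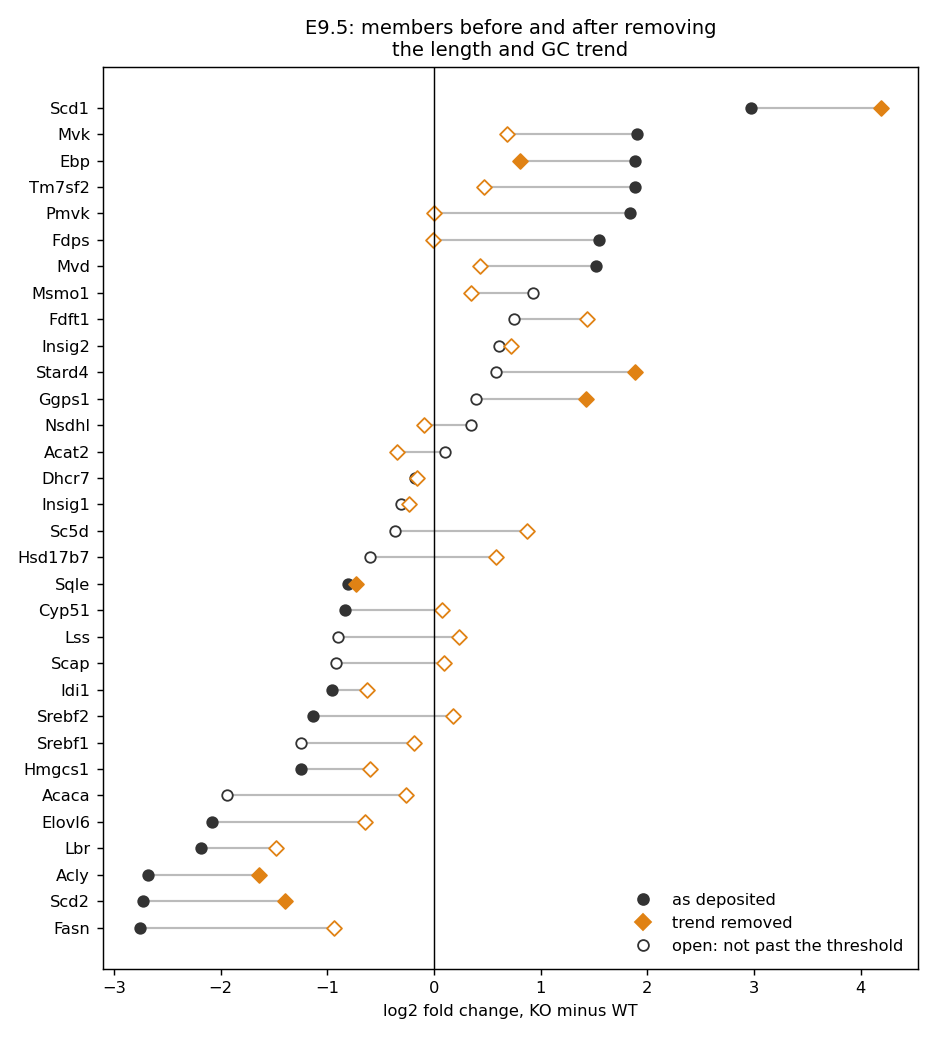
Log2 fold change of KO over WT (x axis) of the 32 members at E9.5 (y axis) as deposited (dark circles) and after taking out the length and GC trend (orange diamonds); filled symbols are past the threshold. Scd1 moves from 2.97 to 4.19, Scd2 from -2.73 to -1.40 and Pmvk from 1.84 to 0.00.

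The E9.5 calls also rested on few libraries. With 1 library left out, a group holds a single library, and the number of calls swung over the whole table, members included. Effect sizes are therefore given here. Over these fits the log2 fold change of Scd2 ranged from -3.01 to -2.45 and that of Fasn from -3.17 to -2.35. That of Lbr ranged from -2.99 to -1.38 and that of Scd1 from 2.44 to 3.50. The value of 3.50 for Scd1 came from the fit without KO1, which leaves KO2 as the only KO library. Besides the globin transcripts in KO1, markers of other cell types differed between the libraries. Mesenchyme and mesoderm markers summed to 324 and 387 RPM in WT and 113 in both KO libraries. Surface ectoderm markers were at 102 in KO1 and 7.67 to 9.55 in the other 3 libraries, and myeloid markers at 1.37 and 1.21 in WT and 5.59 and 14.3 in KO. Of a list for visceral endoderm, 5 of the 6 tested genes were called higher in KO, against 24.5% of all genes, and Dab2 lower. Of these, Ttr, Apoa1, Apoa4 and Rbp4 passed the filter on low values only through the KO libraries, so their calls are no support for the list. The list summed to 65.3 and 74.9 RPM in WT and 110 and 196 in KO, with Ttr at 0 and 0.336 RPM in WT and 22.3 and 55.8 in KO, and Apoa1 at 1.37 and 0.538 and then 18.8 and 48.5. Its defining marker Afp was at 0 in WT1 and KO2 and at most 0.0810 RPM. The part of these transcripts, of the lower RPM sums of the crest markers and of the code numbers in the results at E9.5 was not tested.

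The KO minus WT differences at E9.5 were then compared with those of the earlier stages in 1 model over all libraries, in which stage and cell source cannot be told apart. From E8.5 to E9.5 the difference changed for 18 members, against 49.2% of 10822 genes. From E7.5 to E9.5 it changed for 12 members, against 40% of genes, and from E7.5 to E8.5 for none, against 0%. The first 2 of these comparisons share the E9.5 libraries. Elovl6, positive at E8.5 and negative at E9.5, changed by -2.78 ± 0.42 SE (adjusted p = 0.000528), and Scd1, negative and then positive, by 3.39 ± 0.58 (adjusted p = 0.000757). Hmgcs1, at 0.38 and then -1.25, changed by -1.63 ± 0.37 (adjusted p = 0.00316). Lss and Hsd17b7, which were not called at E9.5 itself, changed by -1.37 ± 0.41 and -1.44 ± 0.53 (adjusted p = 0.0134 and 0.0375). After the length and GC trend was taken out 7 members were called for the step from E7.5, against 2029 of 10412 genes. For the step from E8.5, 5 members were called (Ggps1, Scd1, Lbr, Acly and Scd2), against 2864 of 10412 genes. Elovl6 was then at -1.16 (adjusted p = 0.0850), Hmgcs1 at -0.72 (0.143), Lss at -0.11 (0.857) and Hsd17b7 at -0.043 (0.953), so that these 4 lost their call. Hsd17b7 also missed the threshold in 8 of the 11 fits that left out 1 library.

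The 4 members with a seed match had positive values at E8.5 and differed in sign at E9.5, and none was called at E8.5. At E8.5 Hsd17b7 was at 0.84, Elovl6 at 0.69, Stard4 at 0.43 and Pmvk at 0.04, and at E9.5 they were at -0.60, -2.08, 0.58 and 1.84. Among all genes at E7.5, the stage with miR-302 precursor reads, the median log2 fold change was 0.0097 for the 419 tested with an 8-base match and -0.0022 for those without. At E8.5 it was 0.13 for the 415 tested with an 8-base match and -0.02 for those without. For a match of 7 or 8 bases the E8.5 medians were 0.06 with and -0.04 without. Fold changes at E8.5 also correlated weakly with transcript length (Spearman 0.102), and the part of length in these medians was not tested. At E9.5 the medians with and without an 8-base match were -0.92 and -0.16, in the table whose fold changes follow transcript length.

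Neighbouring pathways were described by lists of their own, to be read beside the 24.5% of all genes called higher and 23% called lower at E9.5. Counts without the length and GC trend are to be read beside fewer calls, 1289 genes higher and 1143 lower of 11557. Among the 6 proteases and INSIG partners that handle SREBP, 3 were lower at E9.5 and none was higher, with a median of -1.21, and none was called after the length and GC trend was taken out. Rnf145, a ubiquitin ligase that acts on SCAP, was at 1223 and 1418 in WT and 596 and 282 in KO (adjusted p = 0.0184), and Mbtps1, the protease that first cuts SREBP, at 1043 and 1343 and then 558 and 253 (adjusted p = 0.0239). Of 11 tested genes of cholesterol transport and storage 3 were higher, near the share of all genes, and 1 was lower. Without the trend 1 was higher and none lower. Tmem97, an endoplasmic reticulum protein, was at 1318 and 1195.5 in WT and 3013 and 3497 in KO (adjusted p = 0.00302), and Npc2, which carries cholesterol in lysosomes, at 735 and 673 and then 1743 and 2764 (adjusted p = 0.00647). With the length and GC trend removed Tmem97 was at -0.17.

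Of 17 other sterol and lipid synthesis genes 4 were higher and 6 lower, with a median of -0.07, and 1 and 3 without the trend. Elovl5, an elongase of polyunsaturated fatty acids, was at 1252 and 1386 in WT and 357 and 422 in KO (adjusted p = 0.00257), and Acsl3, which activates fatty acids, at 575 and 699 and then 114 and 221 (adjusted p = 0.0111). Of 11 isoprenoid genes 3 were higher and 1 lower, and none and 1 without the trend. Coq2, of ubiquinone synthesis, was at 744 and 675 in WT and 1854 and 1923 in KO (adjusted p = 0.00284), and Pggt1b, of a prenyltransferase, at 179 and 184 and then 60.2 and 51.0 (adjusted p = 0.0149). Of 11 genes of fatty acid oxidation 3 were higher, about the share of all genes, and none was lower, against 23%. In this list 9 had positive values, with a median of 0.57, against 47.3% positive and a median of -0.14 over all genes. Of the 3 called, Ppara and Cpt1a passed the filter on low values only through the KO libraries, so their calls and signs are no support for the list. Ppara, the nuclear receptor that drives this pathway, was listed at 0 in both WT libraries and at 38.0 and 93.5 in KO, and Slc25a20, the carnitine carrier, was at 167 and 129 and then 304 and 347 (adjusted p = 0.0253). Without the trend 3 of the 11 oxidation genes were higher and none lower, in a list that still holds Ppara and Cpt1a. At E7.5 and E8.5 no gene of these 5 lists passed. At E8.5 all 9 tested fatty acid oxidation genes had positive values, against 46.9% of all genes, with a median of 0.27, and 5 of 9 did not overlap, against 6.54%. After the length and GC trend was taken out 8 of 9 were positive.

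The authors' deposited table of genes higher at E8.5 lists 5 members: Hsd17b7, Msmo1, Elovl6, Nsdhl and Lss. None has an adjusted p below 0.05 in the authors' deposited table, where that of Elovl6 is 0.371, and the table of lower genes lists none of the 32. At E9.5 the authors' deposited tables list 9 members among 3548 higher genes and 13 among 3282 lower genes. In the authors' deposited tables an adjusted p below 0.05 is given for 9 and 11 of these members and for 3053 and 2737 of all listed genes. Beyond the limma calls these include Msmo1 and Fdft1 as higher and Acaca as lower.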

How the data were processed

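RNA was extracted with miRNeasy, turned into cDNA with SMART-Seq v4 and made into Nextera XT libraries, per the labels' protocols. That kit primes on poly(A) and keeps no strand. FastQC 0.11.5, STAR 2.7.0f and mm10 are named in the submitters' processing notes, and the sources used here do not name the counter, annotation or normaliser. The deposited signal is a normalised count, a gene's reads divided by 1 factor per library within a stage, and all values gave whole reads within 0.01, so depth was recovered. The authors' comparison tables hold log2 fold changes, a score (fold change over its error) and p-values, as deposited. The E7.5 comparison table was not used, because its means differ from those of the E7.5 libraries.

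KO was compared with WT within each stage by limma 3.58.1 (R 4.3.3, trended variance, two-sided) on log2(value + 1), for genes with a mean of at least 10. Benjamini-Hochberg adjustment ran over all tested genes with a threshold of 0.05. Fold changes on that scale understate the change of low genes. Differences between stages came from 1 fit over all libraries. edgeR 4.0.16 and DESeq2 1.42.0 were run on the whole reads. Transcript length, GC content and 3′UTRs came from GENCODE M21 (the longest transcript or, for seed matches, also the shortest 3′UTR), and promoters and miRNAs from RefSeq. Length and GC trends were removed from each library by loess with a span of 0.3. The scripts were tested on simulated data with 200 changed genes.

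The members and lists were chosen with earlier results of these data known. Named were the members past the threshold at each stage, filled to 8 by the smallest p where fewer passed, plus Insig1, Srebf1, Srebf2, Hmgcs1, Sqle, Fasn, Scd1 and Scd2, and up to 2 genes of each neighbouring list. At E8.5 libraries of equal replicate number had positive correlations (0.179, 0.200 and 0.493), and the labels' numbers were tried as a block. The labels state no pairing, and these correlations do not single out the equal numbers as pairs. WT1_5s was closer to KO2 (0.247) and WT2 to KO1 (0.320). Counting error is covered by the depth given, and PCR duplicates are not removed by it. Figures were drawn with matplotlib 3.10.9.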

Additional observations from a re-analysis of the deposited data

Results flagged for a closer look

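In the 4 E8.5 KO libraries, 1 library stood apart from the other 3 for 5 of the 32 members. The rule was Dixon's test, which divides the gap to the nearest library by the range. Chance gives this for about 1 group in 20, but members measured in the same libraries are not independent. KO3 also leans to long transcripts across the whole table (Spearman correlation with length 0.508, relative to the stage mean). The share of all genes with such a library was not counted, so no excess particular to the members is shown. KO3 was lowest for Acat2, at 1732, and for Cyp51, at 619, and highest for Scap, at 554. KO4 was highest for Tm7sf2, at 74.2, and for Dhcr7, at 378.

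The KO minus WT log2 difference differed between E8.5 and E9.5 for 18 members, against 49.2% of 10822 genes (limma, interaction). With the length and GC trend removed 5 members were called, against 2864 of 10412 genes, and 4 of those 5 are among the 18. With the trend left in, the difference changed as follows. Among mevalonate enzymes it changed by -1.63 for Hmgcs1, 1.71 for Mvk, 1.80 for Pmvk, 1.24 for Mvd, -1.39 for Idi1 and 1.50 for Fdps. Among later sterol enzymes it changed by -1.37 for Lss, -1.26 for Cyp51, 1.43 for Tm7sf2, -2.29 for Lbr, -1.44 for Hsd17b7 and 1.55 for Ebp. For the regulator Srebf2 the change was -1.58. For the fatty acid genes it was -2.38 for Fasn, -2.72 for Acly, 3.39 for Scd1, -2.60 for Scd2 and -2.78 for Elovl6.

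With the length and GC trend removed, 7 members were called between E7.5 and E9.5, against 2029 of 10412 genes. With the trend left in, the difference changed for 12 members, against 40% of genes. The sterol enzymes were Mvk at 1.57, Pmvk at 1.79, Fdps at 1.91, Tm7sf2 at 2.40, Lbr at -1.85 and Ebp at 1.93. The fatty acid genes were Fasn at -3.38, Acaca at -1.79, Acly at -3.29, Scd1 at 2.75, Scd2 at -2.81 and Elovl6 at -1.70. Stage and cell source cannot be told apart in these values, and both sets use the same E9.5 libraries.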

How the results depend on the processing

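With 2 libraries in most groups, the counts move with the libraries used. With 1 library left out, the lone library of a group is assumed to vary like the others. At E7.5 the count of all genes then ranged from 0 to 39. Log2 fold changes ranged from -0.12 to 1.34 for Acly, -0.20 to 1.43 for Fasn, -0.0033 to 1.01 for Srebf2, -0.51 to 1.01 for Srebf1, -0.50 to 0.12 for Insig1, -0.75 to 0.50 for Sqle, -0.053 to 0.50 for Scd1 and -0.60 to 0.77 for Scd2. At E8.5 the count of all genes ranged from 0 to 3, and values from -0.62 to 0.65 for Insig1, -0.42 to 0.32 for Scd2 and -0.25 to 0.26 for Sqle. At E9.5 it ranged from 794 to 8694 genes and from 2 to 25 members. For the change from E8.5 to E9.5 it ranged from 3310 to 5932 genes and 9 to 18 members, for that from E7.5 to E9.5 from 2124 to 5291 genes and 7 to 17 members, and for that from E7.5 to E8.5 from 0 to 1 gene.

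With the replicate block 47 genes were called at E7.5 and 663 at E8.5, with 1 member (Elovl6). With the block crossed 48 were called at E7.5, and at E9.5 5722 genes and 19 members with the block became 6665 and 23. DESeq2 called 31 genes at E7.5 and 28 at E8.5. With only the libraries of code number 239, 18 genes were called at E7.5, with Insig1 at 0.12 and Sqle at 0.50. Scd2 at E7.5 was -0.029 with quantile normalisation, -0.084 by edgeR and -0.089 by DESeq2. At E8.5 1 gene was called in 1 fit over all stages, Srebf2 was -0.020 with code numbers 163 and 169 as a block, and Sqle was 0.0056 without both libraries of code number 128. At E9.5 Insig1 was 0.089 with quantile normalisation.

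The length alone trend, the crossed block and the stage changes with the trend removed were chosen after seeing the data. With the length and GC trend removed 2432 genes and 7 members were called at E9.5, with Fdps at -0.013, Srebf2 at 0.18, Cyp51 at 0.076 and Tmem97 at -0.17. With length alone removed 2302 genes and 8 members were called, with Srebf2 at 0.21, Cyp51 at 0.079 and Tmem97 at -0.18. For the changes from E8.5 and E7.5 to E9.5 the trend left 2864 and 2029 genes and 5 and 7 members, with Pmvk at -0.10 and Fdps at -0.015 from E8.5. Beyond the changed transcript trend and the fewer libraries or genes used, the cause was not tested.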
